A study of Rattus norvegicus with 6 samples.

Results

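The potassium channel genes are the rat genes whose symbols begin with Kcn, followed by letters and a number, and they encode the pore-forming and auxiliary subunits of potassium channels. They were taken by symbol alone, with no cut on a measured value, though earlier results of these data were known when the family was chosen. Of the 18166 genes with a probe set that carried a single symbol, 86 fitted this pattern, and all 86 had a RefSeq gene number under the same symbol. Each gene was represented by its brightest single-symbol probe set, and only Kcnk6 had more than 1 to choose from. The pore-forming members comprised 25 voltage-gated pores, 10 modifier pores, 15 inward rectifier pores, 13 pores of the K2P family, whose subunits carry a pair of pore domains, and 7 pores grouped as calcium- or sodium-activated. Roles were assigned by symbol prefix, so Kcnu1, the Slo3 pore, is counted in this last group whatever opens it. The other 16 were auxiliary subunits.

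The series compared rats with diabetes that were given a high dose of liraglutide (Hlirag, 3 arrays) with diabetic rats that were given saline (diabetic, 3 arrays), on Affymetrix Rat Gene 2.0 ST arrays. Per the methods of the study, male Sprague–Dawley rats that were 5 weeks old at the start ate a high-fat diet for 4 weeks, and both groups then received streptozotocin, a toxin of the insulin-producing beta cells, at 30 mg/kg. Liraglutide, which activates the GLP-1 receptor, was given at 0.4 mg/kg/day for 12 weeks, and saline for the same time. The labels give an age of 17 weeks, which is lower than these times added together, and no healthy or low-dose group was analysed here. Diabetes and the diet were thus common to both groups, so the comparison concerns liraglutide within this model alone. No source says whether each array held RNA of a separate rat. The p-values therefore weigh the group difference only against the spread of these samples, and that spread may be technical.

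Potassium channels let potassium leave the cell and so set the resting membrane potential and end each action potential. In cardiac muscle, transient outward, delayed rectifier and inward rectifier currents share this work. In the smooth muscle of arteries, calcium-activated, ATP-sensitive and Kv channels oppose contraction, and in neurons Kv1, Kv7 and SK channels limit repetitive firing.

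The labelled tissue is cardiac muscle, but the titles use a word close in spelling to aorta and the free-text descriptions speak of fat. Of 12 measured ventricular cardiomyocyte markers, 9 had a mean above the background level defined below, but only Pln, Nppb and Hspb7 exceeded it on every array. The log2 of the summed signal of all 12 was 9.22 to 11.35 in Hlirag and 10.71 to 12.08 in diabetic, and 2 of the 12 (Myh7 and Hspb7) were lower in Hlirag at the criterion given below. The markers did not rise together. On diabetic replicate 2, Myh7 (11.03) and Myl3 (10.20) were at their highest, while Myh6 (3.76), Tnnt2 (4.40) and Tnni3 (4.64) were at their lowest of the 6 arrays. Myh7 and Myl3 exceeded the level on diabetic replicates 1 and 2 alone, the arrays where the skeletal muscle markers given below were also highest. Whether their signal came from cardiac or skeletal muscle was not tested. The sarcomere genes Myh6 and Tnnt2, which define these cells, lay below the level on 4 of the 6 arrays. As log2 signals, Myh6 read 7.88, 3.81 and 4.19 in Hlirag and 9.16, 3.76 and 3.93 in diabetic (values in this order are those of replicates 1, 2 and 3). The cardiomyocyte markers thus differed in level between arrays, also within a group, and the samples are named here by group alone. On every array, the 8 measured smooth muscle markers exceeded the background level, as did the 8 white adipocyte markers. Markers of neurons (13 measured of 14 listed, 8 of them lower in Hlirag at the criterion given below) and of skeletal muscle (8 of 13, all 8 lower) had their highest signals on diabetic replicates 1 and 2. The log2 of their summed signal was 11.32 and 14.10 for neuron markers on those 2 arrays, against 8.51 to 8.87 elsewhere, where the median marker (4.66 to 4.82) was below the background level. For skeletal muscle markers it was 13.87 and 14.93, against 8.39 to 8.69. Hlirag replicate 3 had the narrowest range of values, with an SD over genes of 1.52 against 1.84 to 1.98 on the other arrays. In bulk RNA, fewer cells of a type and less RNA per cell cannot be told apart.

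Most potassium channel genes were dim on these arrays. The background level was the 95th percentile of 68 olfactory receptor genes, a log2 signal of 5.60. The mean over the 6 arrays exceeded it for 20 of the 86 members (23.3%), against 52.6% of all genes. On the single arrays, 10 members exceeded it everywhere, namely Kcna5, Kcnip2, Kcnip3, Kcnj8, Kcnk3, Kcnk6, Kcnma1, Kcnmb1, Kcnn3 and Kcnq5. A further 38 exceeded it on some arrays and 38 on none. The members just inside the level were Kcnj14 (5.62) and Kcnj12 (5.67), and just outside it lay Kcnk7 (5.58) and then Kcnd3, Kcna1 and Kcnq3 (each 5.57).

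By role, the auxiliary subunits had the most members above the level, with 8 of 16. Of the pores, 4 of 25 voltage-gated, 3 of 15 inward rectifier and 2 of 13 K2P members exceeded it, and 3 of the 7 grouped as calcium- or sodium-activated. None of the 10 modifier pores did, which form channels only together with other voltage-gated subunits.

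**Figure D1:**
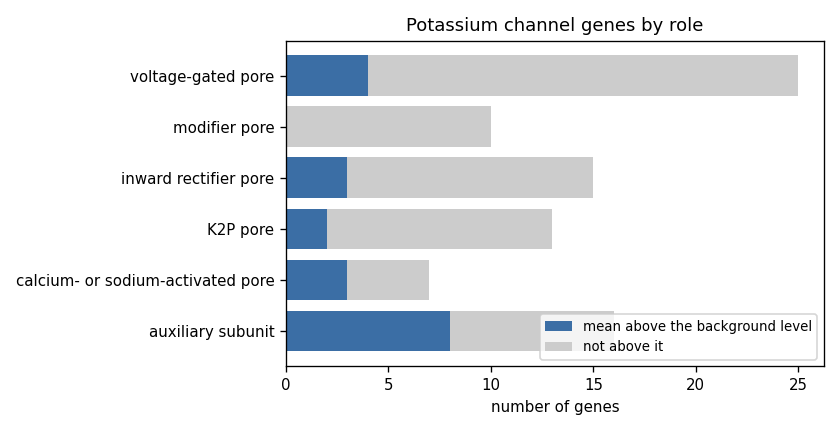
Number of potassium channel genes in each role (horizontal axis), split by whether the mean log2 signal over the 6 arrays exceeded the background level of 5.60. Modifier pores have none of 10 above it, and auxiliary subunits 8 of 16.

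Between the groups, 1 potassium channel gene was lower and 1 was higher in Hlirag at the study's criterion, which asks for a fold change over 1.5 and an unadjusted p under 0.05, here the p of limma. The lower gene was Kcnn3, and over all genes 2.16% were lower at the criterion. The higher gene was Kcng4, and over all genes 1.62% were higher. The members' share was 1.16% in each direction, which is 1 gene each, a count too small to set apart from the share of all genes. With genes not above the background level left out, 1 of 20 members was lower, against 3.2% of the genes kept. In that fit 0 members were higher, against 1.49%. After Benjamini-Hochberg adjustment no gene passed 0.05 (0.0% of 18166), and the lowest adjusted p of a member was 0.780. At an unadjusted p under 0.05 limma gave 752 genes, 3 of them members, and the one-way ANOVA named in the methods gave 690, also with 3 members. The groups did not overlap for 4 members that were higher in Hlirag (Kcnc1, Kcng4, Kcnq1 and Kcns2), against 6.42% of all genes. They did not overlap for 4 that were lower (Kcnh7, Kcnk10, Kcnn3 and Kcnq5), against 4.69%. Both shares of the members were 4.65%. Log2 fold changes are given as Hlirag minus diabetic, so that a negative value is lower in Hlirag.

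Kcnn3 encodes SK3, a small-conductance channel opened by calcium through calmodulin, which is known from neurons, endothelium and smooth muscle. Its log2 signal was 6.71, 6.44 and 6.12 in Hlirag and 8.13, 8.76 and 7.20 in diabetic. Every Hlirag array lay below every diabetic array, and all 6 lay above the background level. The log2 fold change was -1.61 (SE 0.40, 95% interval -2.54 to -0.67, unadjusted p of limma 0.00436, adjusted p 0.780). For groups of 3 that do not overlap, an exact permutation test gives a two-sided p of 0.1, the smallest that it can give.

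The 2 highest Kcnn3 signals came from diabetic replicates 1 and 2, the arrays with high neuron and skeletal muscle markers. With each single array left out, Kcnn3 was still lower at the criterion, with log2 fold changes from -2.02 to -1.24. Without diabetic replicates 1 and 2 together, the log2 fold change was -0.78 with an unadjusted p of 0.119, and Kcnn3 did not meet the criterion. That fit has a single diabetic array, which is assumed to vary like the others. The part of the marker genes in the Kcnn3 difference was not tested. The other SK and IK members were nearer to the background level. Kcnn4, the intermediate-conductance channel of blood cells and endothelium, had a log2 fold change of -0.18, and Kcnn1, a neuronal SK channel, one of 0.28 with 1 array above the level.

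Kcnq5 encodes a Kv7 pore of the M-type current, which steadies the membrane potential in neurons and vascular smooth muscle. It read 6.39, 5.93 and 5.73 in Hlirag and 6.48, 8.47 and 6.45 in diabetic. The groups did not overlap, but Hlirag replicate 1 lay close to diabetic replicates 1 and 3, and diabetic replicate 2 lay 1.99 above the next array. The log2 fold change was -1.12 (SE 0.54, 95% interval -2.38 to 0.14), with an unadjusted p of 0.0749 that missed the criterion. It was -0.45 without diabetic replicate 2. Kcnq5 met the criterion without diabetic replicate 1 (-1.44) and without diabetic replicate 3 (-1.46).

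Kcnq1, the Kv7 pore of the slow delayed rectifier current in the heart, had a mean just below the background level. It read 6.03, 5.63 and 5.65 in Hlirag and 5.42, 4.96 and 5.59 in diabetic. The Hlirag arrays all lay above the background level and the diabetic arrays all lay below it, although Hlirag replicate 2 and diabetic replicate 3 almost met. The log2 fold change was 0.44 and did not meet the criterion (unadjusted p 0.123). It was 0.17 once signals under the background level were set to that level. The remaining Kv7 member, Kcnq3, the partner of other neuronal Kv7 pores, was at 4.62 to 5.40 in Hlirag and at 5.41, 7.84 and 4.86 in diabetic. Only diabetic replicate 2 was above the level for Kcnq3.

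**Figure D2:**
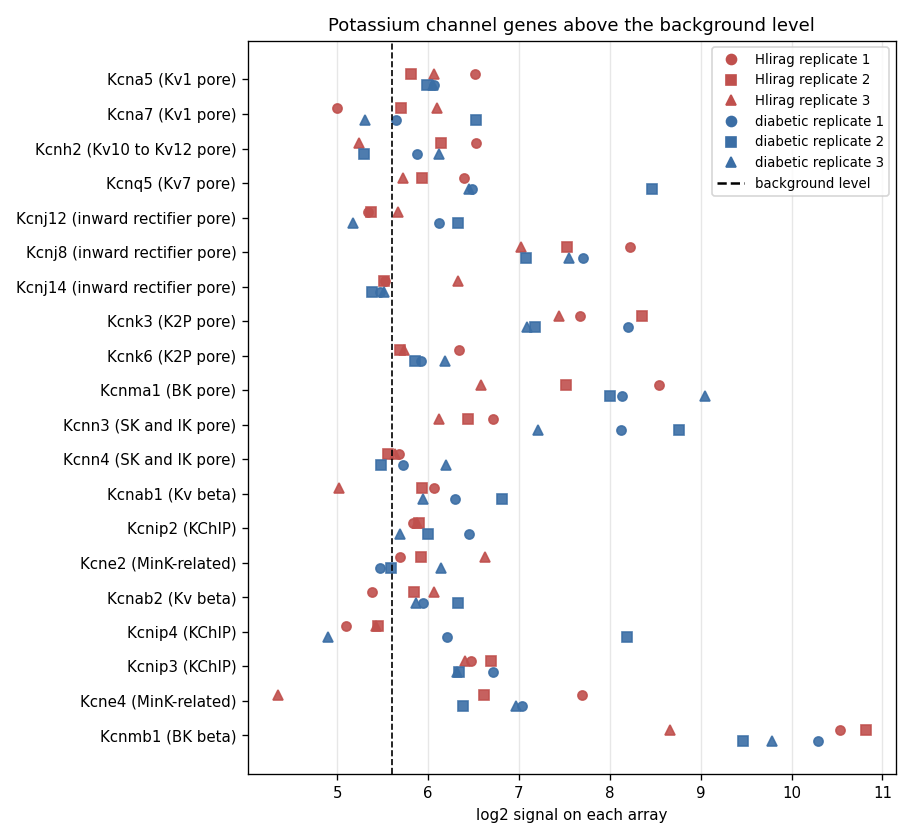
Log2 signal (horizontal axis) of the 20 potassium channel genes whose mean exceeded the background level of 5.60 (dashed line), with 1 point per array. Hlirag arrays are red and diabetic arrays blue, and the marker shape gives the replicate number. Kcnn3 and Kcnq5 are the 2 of the 20 whose groups do not overlap.

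The upstream sequence of Kcnn3 and Kcnq5 is shown because these are the members above the background level whose groups did not overlap. Kcnmb1, a smooth muscle subunit whose groups overlapped, is shown beside them. Each is the stretch of 100 bases just before the start of the gene, from RefSeq on build GRCr8, written 5′ to 3′ on the strand of the gene. Kcnn3 lies on the plus strand at chr2:177234240-177234339, Kcnq5 on the minus strand at chr9:31891282-31891381 and Kcnmb1 on the plus strand at chr10:19061999-19062098.
Kcnn3: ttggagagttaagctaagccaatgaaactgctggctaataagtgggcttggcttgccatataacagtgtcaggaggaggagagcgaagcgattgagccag
Kcnq5: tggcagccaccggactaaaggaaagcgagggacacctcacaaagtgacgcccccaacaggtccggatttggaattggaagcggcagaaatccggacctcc
Kcnmb1: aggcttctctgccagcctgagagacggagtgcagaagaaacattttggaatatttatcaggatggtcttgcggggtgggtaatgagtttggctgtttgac

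The RefSeq table held windows of 250 upstream bases for 60 of the 86 members, 66 windows in all. The G and C content of the window was 57.2% for Kcnn3, 65.2% for Kcnq5 and 50.8% for Kcnmb1. Its median was 59.6% over the members' windows and 51.2% over all 33469 windows. The letters TATAAA occurred on either strand in 2 of the 66 windows, those of Kcnj1 and Kcnj13, against 12.9% of all windows. The CArG box, the site that serum response factor binds at many smooth muscle genes, had no match in the members' windows, against 1.5% of all windows. Hence no letters are in capitals in the stretches above.

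The subunits known from vascular smooth muscle were the group most often above the background level, with 8 of the 9 measured of 11 listed. None met the criterion in either direction, and the median log2 fold change was -0.04, against 0.00 over all genes. Of the members listed for skeletal muscle 1 of 4 was above the level, and of those listed for neurons 1 of 8, again with none at the criterion.

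Kcnma1 encodes the pore of the BK channel, which is opened by both calcium and voltage and brakes arterial contraction. Its log2 signal was 8.54, 7.52 and 6.59 in Hlirag and 8.13, 8.0 and 9.05 in diabetic. Hlirag replicate 1 lay within the diabetic range and the other Hlirag arrays below it. This gave a log2 fold change of -0.84 (SE 0.51, 95% interval -2.04 to 0.35). Kcnma1 met the criterion when Hlirag replicate 1 was left out.

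Kcnmb1 encodes the beta-1 subunit of the BK channel, which raises its calcium sensitivity in smooth muscle. It read 10.54, 10.82 and 8.66 in Hlirag and 10.29, 9.46 and 9.79 in diabetic. Hlirag replicate 3 was the lowest of the 6 arrays, while the other Hlirag arrays were the highest. Over all 6, the log2 fold change was 0.16 (SE 0.56, 95% interval -1.14 to 1.46), and without Hlirag replicate 3 Kcnmb1 was higher in Hlirag at the criterion.

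Hlirag replicate 3 was also the array with the lowest summed signal of the 8 smooth muscle markers, with a log2 value of 11.90 against 12.54 to 13.95 on the others. The single markers were mixed. Smtn, Des and Synpo2 were lowest on Hlirag replicate 3, with Des at 7.86 against 11.43 on diabetic replicate 2. Myh11, Tagln, Lmod1, Mylk and Myocd were lowest on diabetic replicate 2, with Myh11 at 9.75 against 9.86 on Hlirag replicate 3. Of the 20 members above the level, 8 were lowest on Hlirag replicate 3, namely Kcnab1, Kcne4, Kcnh2, Kcnj8, Kcnma1, Kcnmb1, Kcnn3 and Kcnq5. Over all genes, dim ones included, 36.2% were lowest there, and the share among genes above the level alone was not counted. The part of the smooth muscle markers in these values was not tested.

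Kcnj8 encodes Kir6.1, the pore of the ATP-sensitive channel of vascular smooth muscle, which opens when energy falls. It read 8.22, 7.53 and 7.02 in Hlirag and 7.71, 7.07 and 7.55 in diabetic, and the diabetic arrays fell inside the Hlirag range. Its log2 fold change was 0.15 (SE 0.35, 95% interval -0.66 to 0.96). Its regulatory partner Abcc9, the sulfonylurea receptor SUR2, had no Kcn symbol and read 9.40, 8.98 and 7.72 in Hlirag and 9.21, 9.19 and 9.23 in diabetic. Hlirag replicate 3 was the lowest array for both partners. Abcc8, the sulfonylurea receptor of beta cells and neurons, lay below the background level on every array.

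Kcnk3 encodes TASK-1, an acid-sensitive K2P channel that carries a background current in pulmonary artery, atrium and brown fat. It read 7.67, 8.35 and 7.44 in Hlirag and 8.20, 7.17 and 7.09 in diabetic. The lower 2 diabetic arrays lay below all Hlirag arrays, and diabetic replicate 1 lay among them. With a log2 fold change of 0.33 (SE 0.38, 95% interval -0.55 to 1.22), Kcnk3 did not meet the criterion. The log2 of the summed signal of the 7 measured brown adipocyte markers was 12.99 to 13.98 in Hlirag and 11.91 to 13.11 in diabetic, with 3 of the 7 higher at the criterion. Of the 7, 5 had a log2 fold change above 0 and 2 below it (Ppargc1a -0.10 and Zic1 -0.66). A mean above the background level was found for 4. The part of these markers in the Kcnk3 values was not tested.

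Kcne4 encodes a MinK-related subunit that modulates Kv1 and Kv7 channels. It read 7.70, 6.61 and 4.34 in Hlirag and 7.03, 6.38 and 6.97 in diabetic. Hlirag replicate 3 lay 2.04 below the next array and was the only array under the background level. Its log2 fold change of -0.58 had a 95% interval of -2.34 to 1.18.

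Kcnab1 encodes a Kv beta subunit, which binds Kv1 pores inside the cell and speeds their inactivation. It read 6.06, 5.93 and 5.02 in Hlirag and 6.29, 6.81 and 5.95 in diabetic. Only Hlirag replicate 1 and diabetic replicate 3 overlapped, and the log2 fold change was -0.68 (SE 0.36, 95% interval -1.51 to 0.16). The last of the group above the level on every array, Kcna5, the Kv1.5 pore of atrial and vascular muscle, was at 5.81 to 6.52 in Hlirag and at 5.99 to 6.06 in diabetic. Its log2 fold change was 0.10, with a 95% interval of -0.48 to 0.67.

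**Figure D3:**
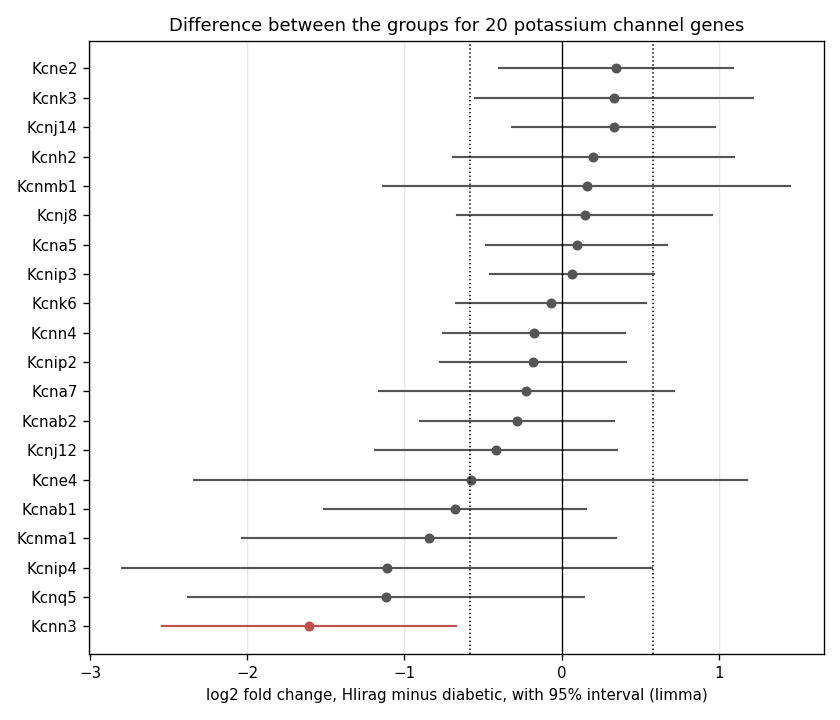
Log2 fold change, Hlirag minus diabetic (horizontal axis), of the 20 potassium channel genes above the background level, with the 95% interval of limma. Dotted lines mark a fold change of 1.5 in either direction. Kcnn3 (red), at -1.61, is the one whose interval lies wholly on one side of 0.

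The subunits of the ventricle and atrium were more often dim, with 5 of the 14 measured of 16 listed above the level. None met the criterion, and the median log2 fold change was -0.01. Kcna5 and Kcnk3 also belong to the smooth muscle list and are given above.

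Kcnip2 encodes KChIP2, the partner of Kv4 pores in the transient outward current of the ventricle. It read 5.84, 5.90 and 5.87 in Hlirag and 6.45, 6.0 and 5.69 in diabetic, so the Hlirag arrays fell inside the diabetic range. Its log2 fold change was -0.18 (95% interval -0.77 to 0.41). Its Kv4 pores were dim, as the mean of Kcnd1, Kcnd2 and Kcnd3 each lay below the level.

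Kcnh2 encodes the ERG pore of the rapid delayed rectifier current, whose loss lengthens the QT interval. It read 6.53, 6.15 and 5.24 in Hlirag and 5.88, 5.29 and 6.12 in diabetic. The groups overlapped, and the log2 fold change was 0.20 (95% interval -0.69 to 1.10). Kcnj12 encodes Kir2.2, a strong inward rectifier that holds the resting potential of muscle. It read 5.34, 5.37 and 5.67 in Hlirag and 6.12, 6.33 and 5.18 in diabetic. Diabetic replicates 1 and 2 were the highest, diabetic replicate 3 was the lowest, and Kcnj12 met the criterion as lower in Hlirag when diabetic replicate 3 was left out. Over all arrays its log2 fold change was -0.42 (95% interval -1.19 to 0.36).

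Other cardiac subunits were above the level on few arrays. Kcnj2, the main inward rectifier pore of the ventricle, exceeded it on diabetic replicate 2 alone (5.94, against 4.21 to 5.18 on the other arrays). Kcnj11, the Kir6.2 pore of the ATP-sensitive channel of heart muscle and beta cells, likewise exceeded it there alone (6.37, against 4.76 to 5.41). Both Kcnj2 and Kcnj11 are also listed for skeletal muscle, whose markers were highest on diabetic replicate 2, and a link was not tested. Kcnj3, a pore of the acetylcholine-activated channel of the atrium, exceeded it on diabetic replicate 1 alone (6.0, against 4.79 to 5.15). Myh6 was high on that array and on Hlirag replicate 1, where Kcnj3 read 4.98, and a link between Myh6 and Kcnj3 was not tested. Kcna4 and Kcnj5 were below the level on every array, and Kcne1, the MinK partner of Kcnq1, exceeded it on Hlirag replicate 3 alone (6.02).

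Diabetic replicate 2 was the highest array by over 1 on the log2 scale for 7 members (8.14%), against 3.51% of all genes. These were Kcna1, Kcnh1, Kcnh7, Kcnip4, Kcnk9, Kcnq3 and Kcnq5, of which Kcna1, Kcnip4 and Kcnq3 belong to the list of neuronal subunits. Of the 8 measured members of that list, 5 were highest on diabetic replicate 2 and the other 3 (Kcnc1, Kcnc2 and Kcnt1) on Hlirag replicate 3. Over all genes, 20.7% were highest on diabetic replicate 2 and 32.2% on Hlirag replicate 3. Kcnc1 read 4.61 on each Hlirag array, so its highest array is not set apart. A total of 9 members (10.5%) exceeded the background level on diabetic replicate 2 only, against 2.17% of all genes, and as many did so on Hlirag replicate 3 only, against 4.8% of all genes. Members were more often dim than all genes. Among genes not above the level, 59.7% were highest on Hlirag replicate 3, and the other shares given here were not counted among them.

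Kcnip4, a Kv4 partner of the KChIP family, read 5.09, 5.45 and 5.42 in Hlirag and 6.21, 8.19 and 4.90 in diabetic. Diabetic replicates 2 and 1 were the highest and diabetic replicate 3 the lowest, so that the log2 fold change of -1.11 had a 95% interval of -2.79 to 0.58. Kcna1, the Kv1.1 pore of axons, read 4.87, 5.10 and 5.61 in Hlirag and 5.29, 7.30 and 5.22 in diabetic. It had a log2 fold change of -0.75 with overlapping groups. Kcnk9, the TASK-3 background channel, read 6.43 on diabetic replicate 2 and 4.81 to 5.22 on the other arrays. Kcnh1, a neuronal EAG pore, read 6.09 there and 4.28 to 4.65 elsewhere. Kcnh7, an ERG pore of the nervous system, had groups that did not overlap, but it lay below the level on every array. Its highest signal was 5.06, on diabetic replicate 2, against 2.92 to 3.95 elsewhere.

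All 13 measured neuron markers were highest on diabetic replicate 2, each by over 1 on the log2 scale, and second highest on diabetic replicate 1. Relative to the mean of the 6 arrays, their median was 3.78 on diabetic replicate 2, 1.07 on diabetic replicate 1 and between -1.42 and -1.04 on the other 4. All 8 skeletal muscle markers were also highest on diabetic replicate 2. The part of either marker list in the signals of the channel genes was not tested. Among 19 measured sodium, calcium and pacemaker channel pores, 5 were highest on this array by over 1. One was Scn9a, a sodium channel of sensory and sympathetic neurons, with 8.25 there and 3.64 to 5.41 elsewhere. Another was Scn4a, the sodium channel of skeletal muscle, with 8.71 there and 4.30 to 6.51 elsewhere.

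**Figure D4:**
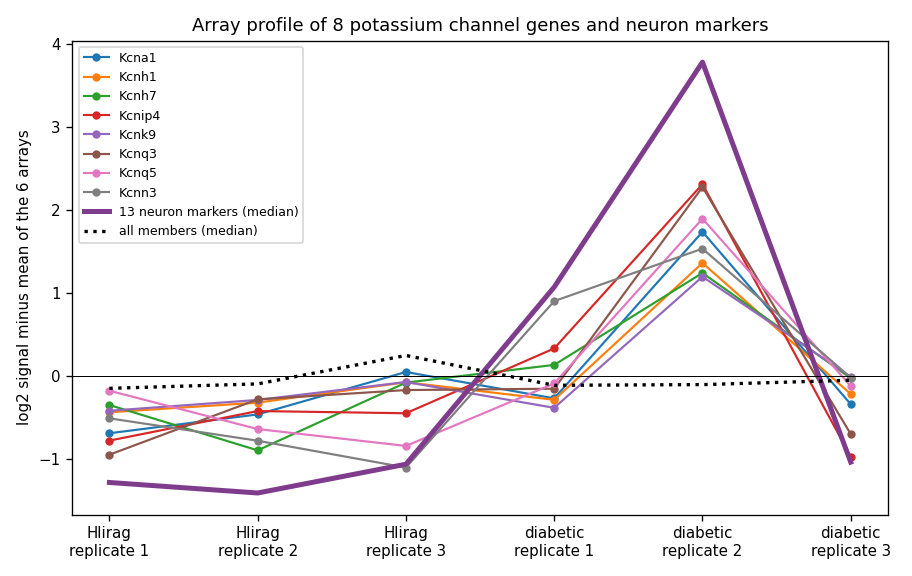
Log2 signal minus the mean of the 6 arrays (vertical axis) on each array, for the 7 potassium channel genes that were highest on diabetic replicate 2 by over 1 and for Kcnn3 (thin lines). The median of 13 neuron markers (thick line) reaches 3.78 on diabetic replicate 2, while the median of all 86 members (dotted line) stays near 0 on every array.

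The largest set, the 25 voltage-gated pores, had no member at the criterion and a median log2 fold change of 0.10, with 14 above 0 and 11 below. Kcna7, a Kv1 pore of heart and skeletal muscle, was the remaining pore of this set above the level. It read 5.0, 5.71 and 6.10 in Hlirag and 5.65, 6.53 and 5.30 in diabetic, with diabetic replicate 2 again the highest array. The 2 measured Kv3 pores, Kcnc1 and Kcnc2, which serve fast-firing neurons, lay below the level on every array. Kcnc1 had groups that did not overlap only at such dim signals, with 4.61 on each Hlirag array and 4.34 to 4.55 in diabetic.

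All 10 modifier pores had a log2 fold change above 0, with a median of 0.26, and none had a mean above the background level. Kcng4, a Kv6 subunit that alters Kv2 channels, read 4.26, 4.90 and 5.31 in Hlirag and 4.13, 4.01 and 4.06 in diabetic. The groups did not overlap, and the log2 fold change of 0.76 (SE 0.30, unadjusted p of limma 0.0358) met the criterion. Every one of these signals lay below the background level, and with signals set to that level the difference was 0. Kcns2, a Kv9 modifier, likewise lay below the level on every array, without overlap of the groups, and its log2 fold change of 0.55 was short of 1.5-fold.

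The olfactory receptor genes that define the background had a median log2 fold change of 0.29, with 54 of 68 above 0. Their median signal was 4.41 on Hlirag replicate 3 and 3.27 to 3.72 on the other arrays. Dim potassium channel genes had the same highest array. Hlirag replicate 3 was the highest for 40 of the 66 members that were not above the level (60.6%), close to the share among all 8616 genes not above it (59.7%). Over all 86 members the median log2 fold change was 0.15, with 52 above 0 and 34 below. It was -0.02 without Hlirag replicate 3 and 0.00 with quantile normalization. With each array centred on its median over probe sets it was 0.01, but with each centred on its median over genes it was 0.21. A direction of the members as a group is therefore not given.

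The 15 inward rectifier pores had no member at the criterion, with a median log2 fold change of 0.15. Beside Kcnj8 and Kcnj12, Kcnj14, a Kir2.4 pore, had a mean above the level, through Hlirag replicate 3 alone (6.33, against 5.38 to 5.53 on the other arrays). The 13 K2P pores also had none at the criterion, with a median of 0.17. Kcnk6, a TWIK-type channel, was above the level on all arrays, at 5.69 to 6.34 in Hlirag and 5.86 to 6.19 in diabetic, with a log2 fold change of -0.07 (95% interval -0.67 to 0.54). Kcnk10, the mechanically gated TREK-2, was lower in Hlirag without overlap, but at signals below the level on every array (log2 fold change -0.45).

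The 16 auxiliary subunits were evenly split, with 8 log2 fold changes above 0 and 8 below and a median of 0.02, and none met the criterion. Kcnip3, which binds Kv4 pores and is also known as the calcium-dependent repressor DREAM, had the narrowest interval among the 20 members above the level. It was at 6.41 to 6.69 in Hlirag and at 6.32 to 6.71 in diabetic, with a log2 fold change of 0.07 (95% interval -0.46 to 0.59). Kcnab2, a further Kv beta subunit, was at 5.38 to 6.06 and 5.87 to 6.33, with a log2 fold change of -0.28 (95% interval -0.90 to 0.34). Kcne2, a MinK-related partner of ERG and Kv7 pores, was at 5.69 to 6.62 and 5.47 to 6.14, with a log2 fold change of 0.35 (95% interval -0.40 to 1.09). These intervals still include a fold change of 1.5 in at least one direction for each of these 3 genes.

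Partners of potassium channels that carry other symbols gave 6 of 11 measured genes above the level and none at the criterion. Dpp6, a partner of neuronal Kv4 channels, was the one whose groups did not overlap. It read 4.25, 4.28 and 4.57 in Hlirag and 5.04, 7.91 and 4.93 in diabetic, with diabetic replicate 2 as the only array above the level and a log2 fold change of -1.60. Of the sodium, calcium and pacemaker channel pores, 5 of 19 were above the level and 1 was lower at the criterion. This was Scn7a, the sodium-sensing channel of glia and nerve, with 7.75, 7.35 and 6.48 in Hlirag and 8.95, 10.32 and 7.35 in diabetic.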

How the data were processed

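RNA of 6 samples, 3 Hlirag and 3 diabetic, was hybridized to single-colour arrays. The authors processed the scans with Expression Console 1.4.1 and deposited log2 values, 1 per probe set and array, for 36685 probe sets, of which 18511 carried 1 symbol, 575 several and 17599 were unnamed here. The log2 scale was read from their range; the summarisation, normalization and centring are not given in the sources used here. Values were compared as deposited. limma 3.58.1 in R 4.3.3 (lmFit, then eBayes, with no covariate) was fitted over all 18166 genes with Benjamini-Hochberg adjustment, and was tested on simulated data. Probe sets shared by several genes were left out. Arrays have no read depth, and their number limits the precision.

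The members, gene lists, tests and the rule for named genes were chosen with earlier results of these data known. The genes given with every array by that rule are members at the criterion, the 5 with the largest difference in each direction without overlap, and members of the cardiac and smooth muscle lists above the background level; the first 2 kinds needed a group mean above that level. The other genes given with values were chosen after their values were seen. Alternatives were the one-way ANOVA of the methods, quantile normalization, median centring over probe sets, dim genes left out, an intensity trend, averaged probe sets per gene, the replicate block, values raised to the background level, other background levels and each array left out. Added after seeing the data were leaving out diabetic replicates 1 and 2 together, leaving out Hlirag replicate 3 together with diabetic replicate 2, and median centring over genes. Replicate numbers were not taken to pair the samples. Figures were drawn with matplotlib 3.10.9, and tables with pandas 2.3.3 and numpy 2.4.6.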

Additional observations from a re-analysis of the deposited data

How the results depend on the processing

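Kcnn3 was lower at the criterion under every alternative run except without diabetic replicates 1 and 2. The count of members higher in Hlirag at the criterion, 1 as reported, was 0 by the one-way ANOVA, with dim genes left out, with values raised to the background level and without diabetic replicates 1 and 2, was 2 with gene median centring, and ranged from 0 to 3 with single arrays left out. The count lower, 1 as reported, was 2 with quantile normalization, median centring, an intensity trend or Hlirag replicate 3 and diabetic replicate 2 both left out, 0 without diabetic replicates 1 and 2, and 1 to 5 with single arrays left out, the 5 without diabetic replicate 3. Over all genes, 687 met the criterion as reported, against 236 by the one-way ANOVA, 448 of 9550 with dim genes left out, 181 with values raised, 286 without diabetic replicates 1 and 2, and from 226 to 2018 with single arrays left out (Hlirag replicates 2 and 1). The split of 294 higher and 393 lower was 128 and 383 with median centring, which moved the median of all genes by -0.14, and 410 and 340 with gene median centring. The median log2 fold change of the members was -0.18 over the 20 tested with dim genes left out. The cause of these changes was not tested.

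With the replicate block, 3 members were higher and 2 lower, Kcnab1 (-0.68, unadjusted p of limma 0.0352) beside Kcnn3, and 1117 genes met the criterion. Deviations of arrays with the same number correlated at 0.32, 0.04 and 0.15, and those of arrays with different numbers at -0.32 to 0.16. These values do not settle whether the numbers pair the samples, and the main fit took no pairing.

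The count of members above the background level, 20 as reported, was 10 if each array had to exceed it, 8 against the 99th percentile of the olfactory receptor genes and 80 against their median. With single arrays left out it ranged from 18 to 25. The 25 was without Hlirag replicate 3, where the level itself was 5.44. Signals under the level have no settled order, so differences of dim members are not measured here.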
